A study of Homo sapiens with 9 samples.

Results

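The 10 genes described here encode the MCM2 to MCM7 helicase subunits (MCM2, MCM3, MCM4, MCM5, MCM6 and MCM7), the loading factors CDT1 and CDC6, the CDT1 inhibitor geminin (GMNN) and the replication factor MCM10. They were chosen by name, with earlier results of these data known. Each was found once among the 58721 gene identifiers of the count files, all of which matched GENCODE release 29. The samples were H1299 cells, a human line grown from a non-small cell lung carcinoma and long established in culture, and RNA sequencing gave 3 libraries of cells given 0.1 mM melatonin, 3 of cells labelled siCLOCK, a small interfering RNA named for the circadian clock gene CLOCK, and 3 of control cells in serum-free medium. The labels give neither a duration nor a non-targeting siRNA group, and they name serum-free medium for the control cells alone, so the medium of the melatonin and siCLOCK cells is not given in the sources used here. The series describes the 3 libraries of a group as independent samples without naming separate cultures, so each p-value reflects library-to-library spread alone, which may be technical.

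Before a cell copies its DNA, the origin recognition complex marks the places where replication can begin, and CDC6 and CDT1 load the ring of MCM2 to MCM7 onto the DNA there. This licensing is restricted to the part of the cell cycle before DNA synthesis: geminin binds CDT1 afterwards and prevents reloading, so that an origin fires once per cycle. The loaded ring becomes an active helicase only after CDC45, the GINS complex and MCM10 have joined it, and the genes of the system are known for E2F-dependent transcription in cells that enter the cycle.

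In GENCODE release 29 on GRCh38, the genes of the ring do not cluster. MCM2 (ENSG00000073111.13) lies at chr3:127598223-127622436 on the plus strand and MCM3 (ENSG00000112118.18) at chr6:52264009-52284881 on the minus strand. MCM5 (ENSG00000100297.15) lies at chr22:35400063-35425430 on the plus strand. MCM6 (ENSG00000076003.4) lies at chr2:135839626-135876426 and MCM7 (ENSG00000166508.17) at chr7:100092728-100101940, both on the minus strand. The genes of the other factors are spread as widely. CDT1 (ENSG00000167513.8) lies at chr16:88803213-88809258, CDC6 (ENSG00000094804.10) at chr17:40287633-40304657, GMNN (ENSG00000112312.9) at chr6:24774931-24786099 and MCM10 (ENSG00000065328.16) at chr10:13161554-13211104, all on the plus strand.

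The promoters shared a sequence feature that the choice of genes did not use. RefSeq windows (GRCh38.p14, 250 bases before to 50 bases after a transcript start) were at hand for 8 of the 10 genes, and MCM4 and MCM5 were not searched. They were searched on both strands for the E2F words TTTGGCGC, TTTCGCGC, TTTCCCGC and TTTGCCGC, which match the site that E2F transcription factors are known to bind. At least 1 of the words was found for 7 of the 8 genes, in 7 of their 11 windows, against 3.32% of the 35116 windows of all genes. MCM10 had none of these words in its window. One site per gene is printed here, 5′ to 3′ on the strand of the gene, for the 7 genes in which an E2F word was found. Capitals mark the E2F words, and in MCM2 and MCM7 also CACGTG, the E-box that the CLOCK protein is known to bind with its partner ARNTL. The positions of the 30 bases are chr3:127598398-127598427 (plus) for MCM2, chr6:52284728-52284757 (minus) for MCM3, chr2:135876513-135876542 (minus) for MCM6 and chr7:100101396-100101425 (minus) for MCM7. Those of the loaders and of geminin are chr16:88803743-88803772 (plus) for CDT1, chr17:40287875-40287904 (plus) for CDC6 and chr6:24775322-24775351 (plus) for GMNN.
MCM2: gtCACGTGaaccactTTTCGCGCGAAAcct
MCM3: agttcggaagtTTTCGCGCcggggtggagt
MCM6: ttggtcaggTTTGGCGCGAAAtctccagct
MCM7: ggtCACGTGgggggcgacgTTTCGCGCcaa
CDT1: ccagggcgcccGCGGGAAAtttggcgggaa
CDC6: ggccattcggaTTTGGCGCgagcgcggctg
GMNN: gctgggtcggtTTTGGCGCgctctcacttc

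In MCM2 the word TTTCGCGC overlaps the same word on the opposite strand, and in MCM6 TTTGGCGC overlaps TTTCGCGC on the opposite strand, which in both makes a run of 12 bases in capitals, and in CDT1 the word lies on the opposite strand. The 250 bases before the MCM6 start (chr2:135876444-135876693, minus strand) hold that run 2 times and are given whole.
MCM6 upstream region: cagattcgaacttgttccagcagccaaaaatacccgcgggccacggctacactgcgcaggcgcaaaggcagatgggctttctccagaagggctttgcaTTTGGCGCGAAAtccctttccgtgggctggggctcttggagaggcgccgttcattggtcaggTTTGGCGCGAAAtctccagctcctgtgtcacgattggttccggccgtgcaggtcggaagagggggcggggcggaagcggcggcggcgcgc

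Of the other elements searched, the CCAAT box was found in 8 of the 11 windows (6 of the 8 genes), against 34.6% of all windows. The cell cycle homology region, searched as TTTGAA and TTCGAA, was found in 1 of the 11 windows, that of MCM6, against 16.4% of all windows. The E-box CACGTG was found in 3 of the 11 windows, for MCM2, MCM7 and GMNN, against 7.26% of all windows. These matches describe the letters in the windows, and no binding was measured.

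The libraries held 15384539 to 19192962 reads counted in genes. The 3 melatonin libraries and the library labelled siCLOCK replicate 3 stood apart from the other 5 before any gene was compared: 2.24 to 2.34% of their reads were unmapped, against 1.22 to 1.36% in the other 5, and 0.314 to 0.324% of their counts fell in processed pseudogenes, against 0.163 to 0.172%. Values within these sets are given beside the results below, because all melatonin libraries lie in the first and all control libraries in the second. CLOCK, the gene named by the siRNA, had 20.9, 32.0 and 38.1 CPM (counts scaled to a common library size of 1e6 by TMM) in siCLOCK replicates 1, 2 and 3, against 39.0, 38.6 and 44.4 CPM in control libraries 1, 2 and 3. The library labelled siCLOCK replicate 3 thus kept 93.8% of the control mean of CLOCK, where replicates 1 and 2 kept 51.5% and 78.7%, and the difference of the groups did not pass the test (log2 fold change -0.42, SE 0.14, adjusted p = 0.340). It passed with the technical set as a term of the fit (-0.62, adjusted p = 0.0185), without siCLOCK replicate 3 (-0.62, adjusted p = 0.0179) and without the filter on low counts (-0.42, adjusted p = 0.000579). The CLOCK level of replicate 3 does not bear out its label, so what this library is remains in doubt. A wrong label and an siRNA of little effect cannot be told apart here, and the siCLOCK means include this library. Without this library 10 of the 10 licensing genes were lower in melatonin than in siCLOCK cells (median -0.53), against 12.9% of all genes tested. Between siCLOCK and control cells 0 of the 10 passed the test (median -0.06), where 43 of 16706 genes were called lower and 60 higher. Among the markers of the line, KRT8, KRT18 and VIM averaged 132, 217 and 1503 CPM in melatonin cells, 153, 289 and 1865 CPM in siCLOCK cells and 164, 269 and 1853 CPM in control cells. EPCAM and KRT19 averaged under 1 CPM in every group. The summed markers of other cell types were at most 0.420 CPM for leukocytes, 0.112 CPM for erythroid cells, 3.50 CPM for fibroblasts, 4.35 CPM for endothelium and 1.17 CPM for lung epithelium in any library.

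All 10 genes were lower in melatonin cells than in control cells, and in each of them every melatonin library lay below every control and every siCLOCK library. The mean levels in melatonin cells were between 54.7% (MCM5) and 78.8% (GMNN) of those in control cells. All 10 passed the test (edgeR's quasi-likelihood F test, Benjamini-Hochberg adjusted p under 0.05 over 16441 genes), against 12.1% of all genes tested that were called lower. In the same comparison 21.4% of all genes tested had all melatonin libraries below all control libraries. The 10 genes were chosen with earlier results of these data known, so these shares describe them and test nothing. The median log2 fold change of the 10 genes was -0.56, against 0.01 over all genes tested. In bulk RNA, fewer cells in the phase that transcribes these genes and less of their RNA per cell cannot be told apart.

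The helicase subunits held the widest range of differences. MCM5, which with MCM2 forms the gate of the ring, had 80.6, 84.8 and 89.8 CPM in melatonin libraries 1, 2 and 3, against 150, 166 and 152 CPM in control libraries 1, 2 and 3. All melatonin libraries lay below the lowest control library. The log2 fold change was -0.87 (SE 0.09, 95% interval -1.06 to -0.68, adjusted p = 2.43e-06), the greatest fall among the 10 genes. MCM2 had 80.5, 76.7 and 83.3 CPM in melatonin libraries, against 121, 142 and 137 CPM in control libraries, and here control replicate 1 was the lowest of its group. Its log2 fold change was -0.73 (SE 0.08, interval -0.90 to -0.57, adjusted p = 3.40e-06).

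MCM7, a subunit of the catalytic core, had 414, 451 and 461 CPM in melatonin libraries, against 685, 751 and 741 CPM in control libraries. The gap between the groups was wider than the range within either, and the fall was 0.72 on the log2 scale (SE 0.07, interval -0.86 to -0.57, adjusted p = 1.27e-06). MCM4 (ENSG00000104738.17, chr8:47960185-47978160, plus strand), which binds MCM6 and MCM7 in the catalytic core of the ring, had 279, 290 and 299 CPM in melatonin libraries, against 415, 450 and 472 CPM in control libraries. Here too the groups were well apart, with a log2 fold change of -0.62 (SE 0.06, interval -0.76 to -0.49, adjusted p = 1.59e-06).

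MCM3 and MCM6 fell least of the 6 subunits. MCM3, the partner of MCM5, had 167, 169 and 171 CPM in melatonin libraries, against 229, 239 and 246 CPM in control libraries, and the melatonin libraries were nearly alike. Its log2 fold change was -0.49 (SE 0.08, interval -0.65 to -0.33, adjusted p = 0.000134). MCM6 was the tightest of all, with 133, 133 and 134 CPM in melatonin libraries, against 172, 168 and 191 CPM in control libraries. It fell by 0.41 on the log2 scale (SE 0.06, interval -0.55 to -0.28, adjusted p = 0.000170).

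Of the loaders, CDT1 fell about as much as MCM2 and CDC6 about as much as MCM6. CDT1, which brings the helicase to the origin, had 75.0, 88.0 and 84.3 CPM in melatonin libraries, against 141, 149 and 130 CPM in control libraries. Melatonin replicate 1 was the lowest library, and the log2 fold change was -0.77 (SE 0.08, interval -0.92 to -0.61, adjusted p = 1.17e-06). CDC6, the ATPase that holds CDT1 and the ring at the origin, had 41.3, 42.4 and 41.1 CPM in melatonin libraries, against 51.6, 54.8 and 56.0 CPM in control libraries. They lay close together and below every control library, and CDC6 fell by 0.38 on the log2 scale (SE 0.07, interval -0.53 to -0.23, adjusted p = 0.000672).

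GMNN, the inhibitor, showed the smallest fall of the 10 genes. It had 60.0, 60.4 and 64.3 CPM in melatonin libraries, against 76.1, 79.5 and 78.7 CPM in control libraries, without overlap. The log2 fold change was -0.34 (SE 0.07, interval -0.49 to -0.19, adjusted p = 0.00198). MCM10, which acts when the ring is activated, had 37.1, 34.4 and 36.6 CPM in melatonin libraries, against 46.7, 51.3 and 55.2 CPM in control libraries. The groups did not overlap, and the log2 fold change was -0.50 (SE 0.08, interval -0.68 to -0.33, adjusted p = 0.000315).

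**Figure D1:**
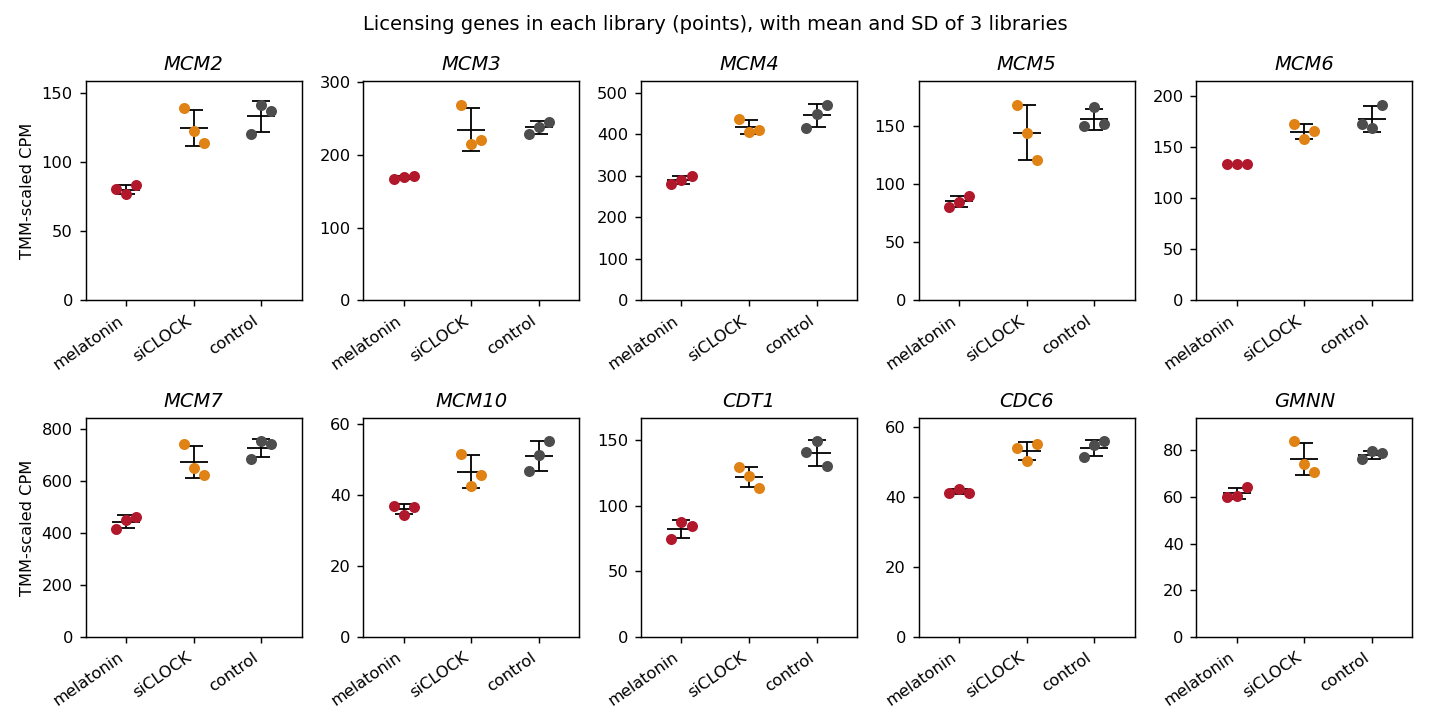
Level in CPM of each of the 10 licensing genes in every library (points), with the group mean and SD (bars), for melatonin, siCLOCK and control cells (3 libraries each). In every panel the 3 melatonin points lie below all 6 other points, and siCLOCK and control points overlap in every panel except that of CDT1.

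The melatonin comparison was repeated against siCLOCK cells, where the melatonin libraries are the same and the comparisons are therefore not independent. All 10 genes were lower in melatonin cells than in siCLOCK cells, against 10.1% of all genes tested that were called lower, and 17.4% of all genes tested had every melatonin library below every siCLOCK library. MCM5 averaged 85.1 ± 4.60 CPM in melatonin cells and 144 ± 23.9 CPM in siCLOCK cells (SD, n = 3 each), a log2 fold change of -0.76 (adjusted p = 1.95e-05). MCM2, MCM7 and CDT1 differed by -0.64, -0.60 and -0.56 on the log2 scale, with adjusted p between 1.51e-05 and 5.36e-05. MCM4, MCM3, MCM10 and CDC6 differed by -0.53, -0.47, -0.37 and -0.36. MCM6 and GMNN differed least, both by -0.31, with adjusted p = 0.00301 for MCM6 and 0.00586 for GMNN.

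Only 1 siCLOCK library shares the technical set of the melatonin libraries. Within that set, every melatonin library lay below the library labelled siCLOCK replicate 3 in all 10 genes, a description of these 4 libraries with no test. The share of all genes tested with this order was not counted, so it cannot be called particular to the 10 genes. The melatonin mean minus siCLOCK replicate 3 was between -0.51 for MCM4 and -0.20 for GMNN on the log2 scale, with a median of -0.44 over the 10 genes. With the technical set as a term of the fit, which rests on siCLOCK replicate 3 with its doubtful label, 7 of the 10 genes were lower in melatonin cells than in control cells, where 2.96% of all genes tested were called lower. MCM3 (log2 fold change -0.35, adjusted p = 0.104), MCM10 (-0.47, adjusted p = 0.0654) and GMNN (-0.18, adjusted p = 0.423) did not pass, while CDT1 (-0.62), MCM4 (-0.59), MCM7 (-0.56) and MCM2 (-0.53) did. MCM5, with -0.87 in the fit without the term, was at -0.50 with it. Against siCLOCK cells 8 of the 10 were lower with the term, where 3.85% of all genes tested were called lower, and MCM10 (-0.35, adjusted p = 0.0731) and GMNN (-0.20, adjusted p = 0.215) did not pass. The part of the technical set in the differences was not tested beyond these values.

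**Figure D2:**
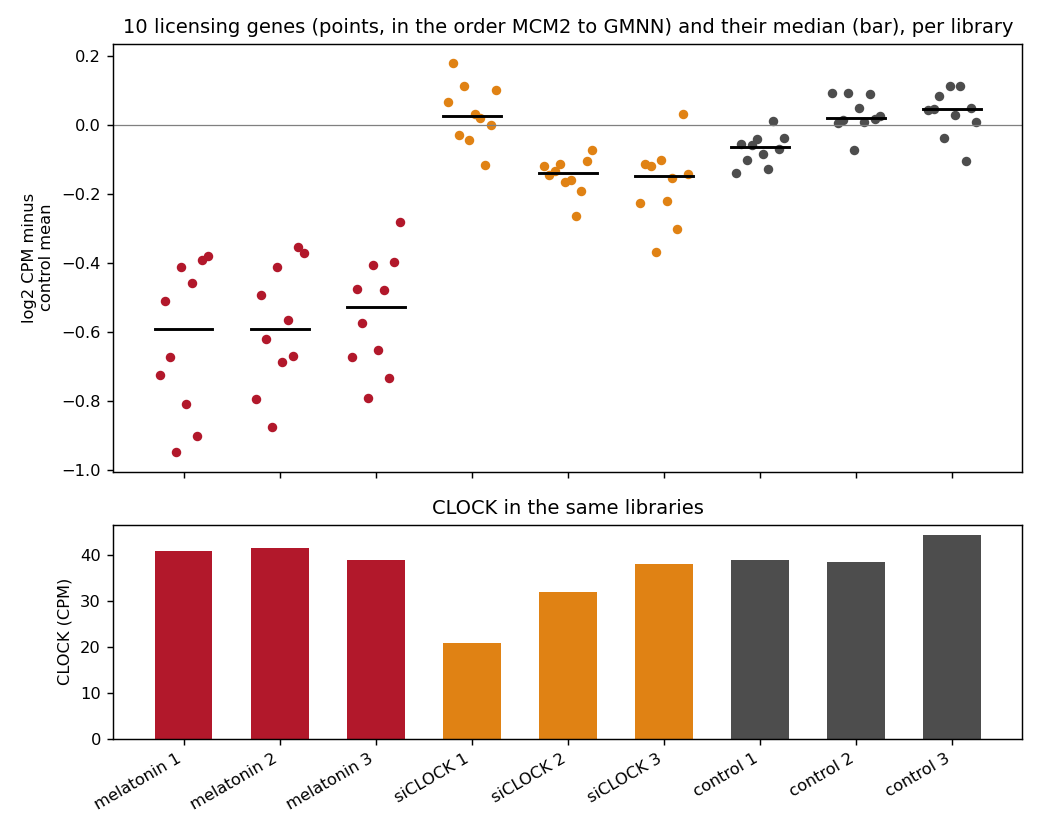
Level of each licensing gene in each library as log2 CPM minus the control mean, with the median of the 10 genes per library (upper panel), and CLOCK in CPM in the same libraries (lower panel, lowest in siCLOCK 1). The medians are -0.59, -0.59 and -0.53 in melatonin libraries 1, 2 and 3, then 0.03, -0.14 and -0.15 in siCLOCK libraries 1, 2 and 3, and -0.06, 0.02 and 0.05 in control libraries 1, 2 and 3.

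No licensing gene passed the test between siCLOCK and control cells: 0 of the 10 were called lower or higher by edgeR, and likewise 0 by DESeq2 and by limma-voom, against 0.122% of all genes tested called in either direction and 0.0669% called lower by edgeR. One gene, CDT1, had an unadjusted p under 0.05, as did 1355 of the 16441 genes tested, a share near that of 1 in 10. It had 129, 123 and 114 CPM in siCLOCK libraries 1, 2 and 3, against 141, 149 and 130 CPM in control libraries 1, 2 and 3, and all siCLOCK libraries lay below all control libraries, as they did in 5.06% of all genes tested. Its log2 fold change was -0.20 (SE 0.07, interval -0.36 to -0.05, adjusted p = 0.426).

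The fitted differences of all 10 genes were below 0, as were those of 8055 of the 16441 genes tested, and their median was -0.10, against 0.00 over all genes tested. The adjusted p lay between 0.426 and 0.978. A p above the threshold does not show equal levels, and the intervals show what remained possible: MCM3 was at -0.02 (interval -0.18 to 0.14), and no interval of the 10 genes reached below the -0.36 of CDT1. The genes that carry the E-box in the window searched were at -0.09 for MCM2 (adjusted p = 0.846), -0.11 for MCM7 (adjusted p = 0.745) and -0.03 for GMNN (adjusted p = 0.959). CLOCK itself, at -0.42, did not pass in the same fit, and whether the E-box bears on these genes was not tested.

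The siCLOCK libraries differed among themselves more than the melatonin libraries did in each of the 6 subunits. MCM5 had 168, 144 and 121 CPM in siCLOCK replicates 1, 2 and 3, and MCM7 had 742, 650 and 623 CPM. The library with the least CLOCK RNA, replicate 1, was the highest of the siCLOCK libraries in 9 of the 10 genes. Below the control mean were 3 of the 10 genes in replicate 1, 10 in replicate 2 and 9 in replicate 3. The shares of all genes tested with these orders were not counted, so the counts describe the 10 genes alone. Replicate 3, the library that stands with the melatonin libraries in its technical values, had a median log2 difference from the control mean of -0.15 over the 10 genes, and replicates 1 and 2 together had -0.06.

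**Figure D3:**
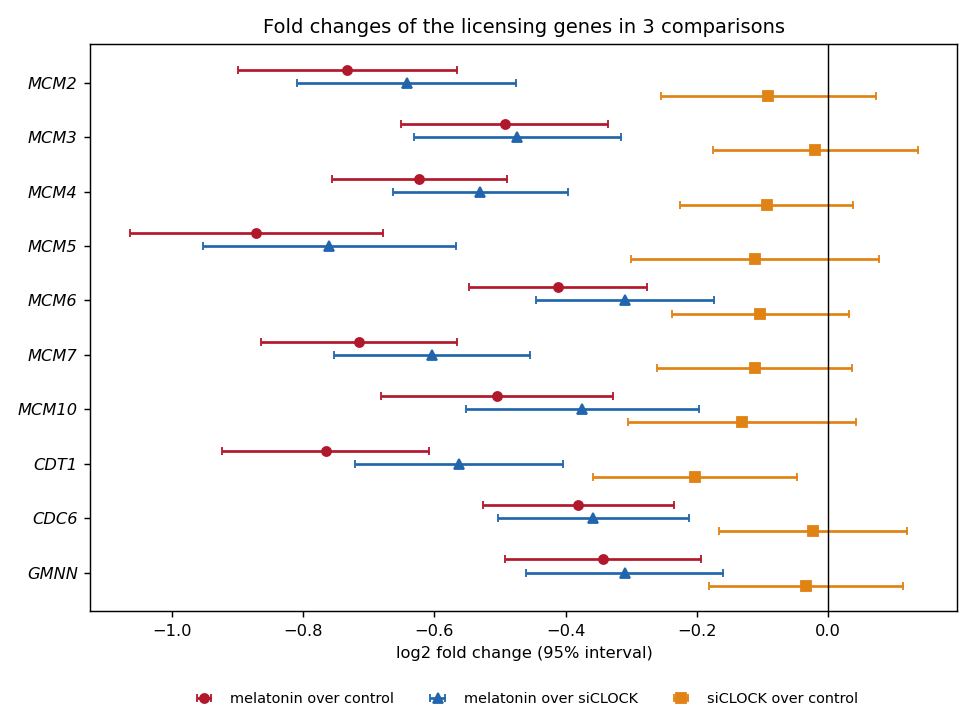
Log2 fold change of each licensing gene with its 95% interval from edgeR's quasi-likelihood fit, for melatonin over control, melatonin over siCLOCK and siCLOCK over control cells. The melatonin intervals lie wholly below 0 for all 10 genes against either group, and the siCLOCK intervals include 0 for 9 of the 10 genes, the exception being CDT1.

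Levels can be compared between genes after division by length. Per kilobase of annotated exon, the order in melatonin cells was MCM7 (101 ± 5.69 CPM per kilobase), MCM3 (46.2 ± 0.547), MCM4 (41.5 ± 1.41), MCM6 (32.3 ± 0.0808), GMNN (24.9 ± 0.959), CDT1 (24.7 ± 2.02), MCM2 (16.4 ± 0.682), MCM5 (11.6 ± 0.627), CDC6 (7.49 ± 0.120) and MCM10 (6.60 ± 0.259), as mean ± SD of 3 libraries. The order in siCLOCK cells was MCM7 (153 ± 14.2), MCM3 (64.2 ± 8.21), MCM4 (59.9 ± 2.37), MCM6 (40.1 ± 1.70), CDT1 (36.5 ± 2.37), GMNN (30.8 ± 2.73), MCM2 (25.5 ± 2.66), MCM5 (19.7 ± 3.25), CDC6 (9.59 ± 0.472) and MCM10 (8.55 ± 0.860). In control cells the order was the same as in siCLOCK cells, with MCM7 at 165 ± 8.16, MCM3 at 65.1 ± 2.35, MCM4 at 63.9 ± 4.07, MCM6 at 43.0 ± 3.01, CDT1 at 42.0 ± 2.86, GMNN at 31.6 ± 0.715, MCM2 at 27.2 ± 2.25, MCM5 at 21.2 ± 1.22, CDC6 at 9.75 ± 0.410 and MCM10 at 9.37 ± 0.781 CPM per kilobase. The neighbours MCM3 and MCM4, MCM6 and CDT1, and CDC6 and MCM10 in siCLOCK and control cells, and GMNN and CDT1 in melatonin cells, had overlapping SDs. So did GMNN and MCM2, and MCM2 and MCM5, in siCLOCK cells, although GMNN exceeded MCM2 and MCM2 exceeded MCM5 in every siCLOCK library. Library by library, MCM3 exceeded MCM4, MCM6 exceeded CDT1 and CDC6 exceeded MCM10 in every siCLOCK library. The order of these pairs varied among control libraries, as did that of GMNN and CDT1 among melatonin libraries. In all 3 groups MCM7 was more than 2 times the next gene and MCM5 the lowest of the 6 subunits.

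The order depends on the length used. With the principal transcript of each gene in place of all its exons, a choice made after the values were seen, control levels were 245 for MCM7, 107 for MCM4, 74.0 for MCM3, 61.9 for GMNN and 47.4 for MCM6. They were 44.1 for MCM5, 43.3 for CDT1, 36.8 for MCM2, 16.2 for MCM10 and 11.3 CPM per kilobase for CDC6, so that MCM2 and not MCM5 was the lowest subunit. The fold change of 1 gene between groups does not depend on it, because the length cancels, whereas a ratio of 2 genes does.

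Proteins of the ring are known to act in equal number, and the balance of the 6 RNAs can be set beside that. As log2 of its level per kilobase of exon over the arithmetic mean level of MCM2 to MCM7 in the same library, MCM5 was at -1.86, -1.85 and -1.80 in melatonin libraries 1, 2 and 3, at -1.53, -1.57 and -1.79 in siCLOCK libraries 1, 2 and 3, and at -1.58, -1.54 and -1.69 in control libraries 1, 2 and 3. The library labelled siCLOCK replicate 3, which shares the technical set of the melatonin libraries, thus lay nearer to them than to the other siCLOCK libraries. MCM6 averaged -0.36 in melatonin cells, -0.59 in siCLOCK cells and -0.58 in control cells. By library 1, 2 and 3 it was at -0.31, -0.37 and -0.40 in melatonin cells and at -0.67, -0.60 and -0.50 in siCLOCK cells. In control libraries 1, 2 and 3 it was at -0.54, -0.68 and -0.52. Here too siCLOCK replicate 3 was the siCLOCK library nearest to the melatonin libraries, and the part of the technical set was not tested. Between the most and the least abundant subunit per kilobase the ratio was 8.69 ± 0.178 in melatonin cells, 7.86 ± 0.687 in siCLOCK cells and 7.80 ± 0.324 in control cells (SD, n = 3 each), and siCLOCK replicates 1, 2 and 3 had 7.38, 7.56 and 8.65. The value of siCLOCK replicate 3 lies among the melatonin values, and the part of the technical set in this ratio was not tested. With principal transcript lengths the ratio was 6.76 ± 0.453 in melatonin cells, 6.58 ± 0.120 in siCLOCK cells and 6.68 ± 0.234 in control cells, differences within the spread of the libraries.

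CDT1 and its inhibitor GMNN fell by different amounts. The ratio of CDT1 to GMNN per kilobase was 0.927, 1.08 and 0.973 in melatonin libraries 1, 2 and 3, against 1.38, 1.39 and 1.23 in control libraries 1, 2 and 3. In siCLOCK libraries 1, 2 and 3 it was 1.14, 1.23 and 1.19. The groups did not overlap in any of the 3 pairs, although siCLOCK replicate 2 and control replicate 3 both came to 1.23. The exact two-sided permutation p was 0.1 in each comparison, the smallest that this test can give with 3 against 3 libraries, so it cannot pass 0.05 here. With principal transcript lengths the ratio was 0.522 ± 0.0418 in melatonin cells, 0.623 ± 0.0212 in siCLOCK cells and 0.699 ± 0.0476 in control cells (SD, n = 3 each).

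**Figure D4:**
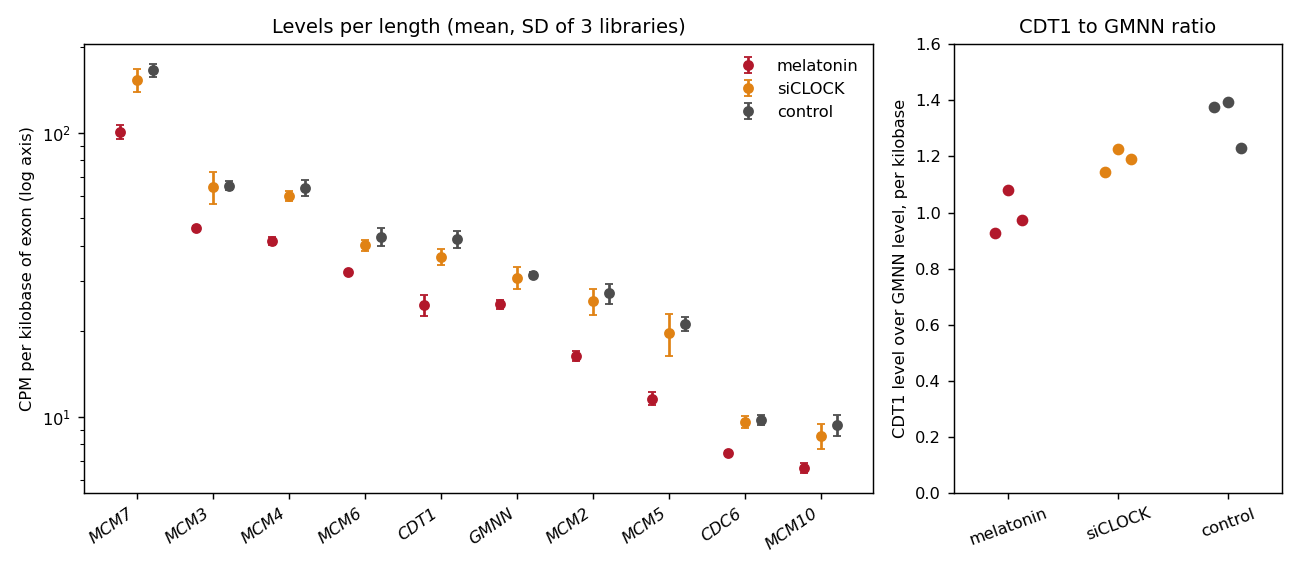
Level of each licensing gene in CPM per kilobase of annotated exon on a log axis, as mean and SD of 3 libraries, for melatonin, siCLOCK and control cells (left panel), and the CDT1 to GMNN ratio per kilobase in each library (right panel, linear axis). MCM7 is the highest gene in every group and MCM10 the lowest, and the melatonin means lie lowest for each gene, and all melatonin ratios lie below the others.

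Together the 10 genes made up 1420 ± 49.0 CPM in melatonin cells, 2056 ± 166 CPM in siCLOCK cells and 2199 ± 96.8 CPM in control cells (SD, n = 3 each). No processed pseudogene named for one of these genes was found in the annotation. Overlaps on the opposite strand limit MCM2 and MCM7: 22.7% of the exon length of MCM2 is shared with the antisense gene AC023593.1 and 8.94% of that of MCM7 with AP4M1, and the counts used here do not separate strands. The 2 strand columns added together held 1.36 times as many MCM2 reads, and with them MCM2 differed by -0.76 between melatonin and control cells (adjusted p = 1.31e-06) and MCM7 by -0.70.

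The partners of these genes were followed in 4 lists of 41 genes, of which 40 were tested, GMNC having too few counts. The lists too were chosen with earlier results of these data known. In melatonin cells 26 of the 40 were lower than in control cells and 0 were higher, against 12.1% and 11% of all genes tested, with a median log2 fold change of -0.31. The 14 genes that turn the loaded ring into an active helicase moved most: 13 fell, with a median of -0.50. Among them were GINS2 (-0.73) and GINS4 (-0.68) of the GINS complex, CDC45 (-0.70), and TICRR (-0.63), which brings CDC45 to the origin. DBF4 (-0.48), the activating subunit of the kinase that phosphorylates the ring, fell, whereas its catalytic partner CDC7 was at -0.18 (adjusted p = 0.114).

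The origin recognition list changed in fewer members. ORC1 fell by 0.51 on the log2 scale (adjusted p = 0.000761), ORC6 by 0.32 (adjusted p = 0.0189) and ORC2 by 0.23 (adjusted p = 0.0322), and the other 5 of its 8 genes did not pass, with ORC3, ORC4 and ORC5 at -0.09, 0.10 and 0.10. ORC1 is the subunit whose level is known to change with the cell cycle. Of 11 genes for the turnover of licensing factors, 6 fell, CDC20 (-0.91), DTL (-0.60), CCNF (-0.54), FZR1 (-0.44), FBXO5 (-0.35) and SKP2 (-0.29). DTL, which marks CDT1 for destruction during DNA synthesis, and SKP2 belong to ligases whose other subunits in the list, DDB1, CUL4A, CUL4B and CUL1, did not pass. Of 7 tested relatives of the ring, of geminin and of proteins that bind them, 4 fell: MCM8 (-0.42), MCMBP (-0.32), TONSL (-0.31) and MMS22L (-0.30). MCM9, the partner of MCM8, was at 0.23 (adjusted p = 0.0909).

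With the technical set as a term, 13 of the 40 were lower in melatonin than in control cells, against 2.96% of all genes tested, 8 of them in the helicase activation list and 0 in the origin recognition list. Against siCLOCK cells, 23 of the 40 were lower in melatonin cells, against 10.1% of all genes tested. Between siCLOCK and control cells 0 of the 40 were called by edgeR, by DESeq2 or by limma-voom, and 3 had an unadjusted p under 0.05 in edgeR, a share near that of all genes tested (1355 of 16441). The E2F words were found for 5 of the 10 helicase activation genes with a window, 1 of 8 of the origin recognition genes, 2 of 11 of the turnover genes and 3 of 6 of the relatives. By window these were 5 of 14, 1 of 9, 2 of 25 and 3 of 7, against 3.32% of the windows of all genes. Whether the words go with the differences in level was not tested.

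**Figure D5:**
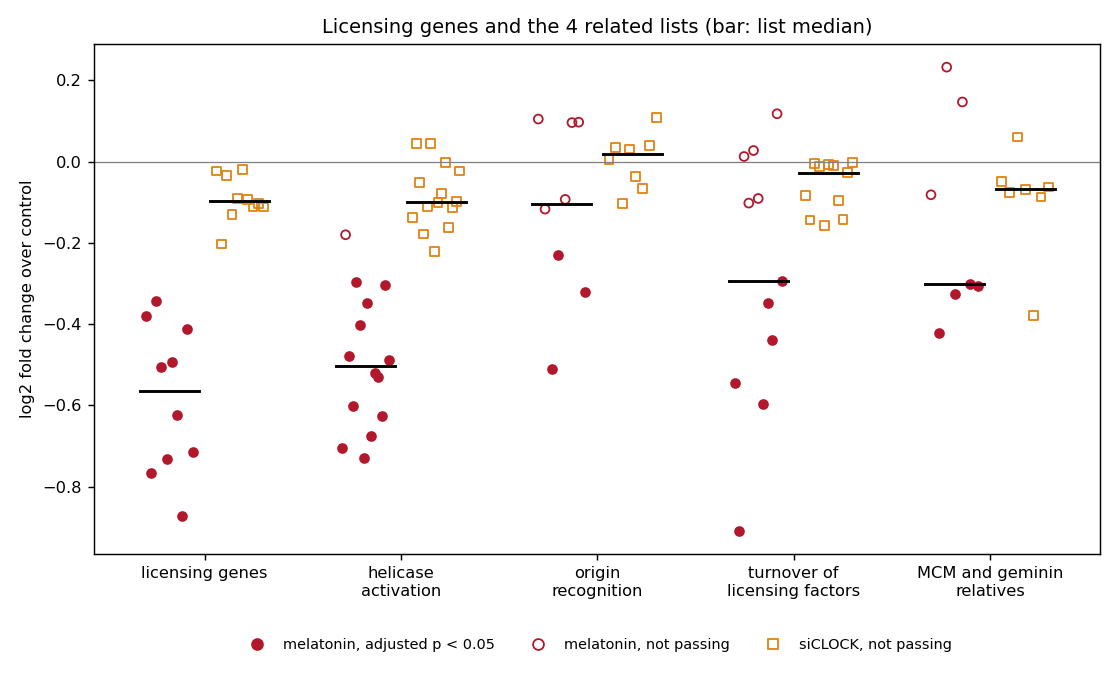
Log2 fold change against control cells for each gene of the licensing genes and of the 4 partner lists, in melatonin cells (circles, filled where the adjusted p was under 0.05) and siCLOCK cells (open squares), with list medians as bars. In melatonin cells the licensing genes and the helicase activation list have medians of -0.56 and -0.50, and the origin recognition list has a median of -0.10.

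The genes most like the 10 over the 9 libraries were sought among 7793 other genes that averaged at least 20 CPM, by Pearson's r with the mean standardised profile of the 10 genes. TICRR came first (r = 0.996), followed by TRIP13 (0.993), an ATPase of the spindle checkpoint, RFWD3 (0.993), a ubiquitin ligase of stalled replication forks, HMGXB4 (0.992) and KPNA2 (0.991), a nuclear import receptor. The points share 3 conditions, so r is a description with no test. The median r was 0.04, and 222 genes had r over 0.95.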

How the data were processed

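Total RNA of H1299 cells was sequenced with paired reads, per the labels' protocols. The deposited files hold whole-number counts per gene in the 4-column layout of STAR (2.7.9a, GRCh38, per the submitters' processing notes), made by the authors from the reads of each library, with versioned gene identifiers that all matched GENCODE release 29. The unstranded counts were used, since both strand columns held like totals (ratio 1.01 to 1.05). Reads with no feature or with an ambiguous one (ambiguous reads were 9.77 to 10.6%) stayed out of library sizes. Counts of all 9 libraries were fitted per gene with edgeR 4.0.16 in R 4.3.3 (filterByExpr, TMM, quasi-likelihood F test, group means), Benjamini-Hochberg adjusted over 16441 genes, all 10 members among them, with an adjusted p under 0.05 as the threshold. CPM values use TMM-scaled totals, and intervals are 95% intervals of the fitted log2 fold change.

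The members and lists were chosen with earlier results of these data known. Named genes are all 10 members, partner genes by list, and the 5 genes most like the members' mean profile. Alternatives were another normalization, no filter, DESeq2 1.42.0, limma-voom (limma 3.58.1), 6 libraries alone, a replicate block, a technical set term (libraries above 1.8% unmapped reads against the rest), summed strand columns, a threshold of 0.01 and each library left out. The replicate numbers came from the titles and were not taken as pairs.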

Additional observations from a re-analysis of the deposited data

How the results depend on the processing

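Against control cells the 10 genes were lower in melatonin cells in every alternative with the exception of the technical set term, which left 7 (median -0.48), and the median lay between -0.62 and -0.52 with each library left out. Against siCLOCK cells all 10 were lower in melatonin cells, with the exception of 8 under that term, and the median with a library left out was -0.54 to -0.43. None was called between siCLOCK and control cells in any alternative run.

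Directions between siCLOCK and control cells turned where values were near 0: under the technical set term MCM3 came to 0.026, MCM5 to 0.0026 and GMNN to 0.018, and with a library left out MCM3 ranged from -0.13 to 0.040, CDC6 from -0.057 to 0.017 and GMNN from -0.11 to 0.012. CLOCK in melatonin against control cells ranged from -0.043 to 0.061 with a library left out, 0.016 without melatonin replicate 3, and was -0.53 (adjusted p = 0.104) under the technical set term. Between siCLOCK and control cells CLOCK was at -0.21 without siCLOCK replicate 1.

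Counts over all genes moved more, given as lower and higher calls. Under the technical set term they were 487 and 283 for melatonin against control, 43 and 73 for siCLOCK against control and 633 and 328 for melatonin against siCLOCK. At an adjusted p under 0.01 they were 1137 and 863, 1 and 2, and 873 and 464. For siCLOCK against control they were 59 and 152 without a filter, 29 and 47 with DESeq2 and 4 and 3 with 6 libraries. With a library left out, melatonin against control gave 1372 to 2439 lower and 1061 to 2213 higher, siCLOCK against control 1 to 43 and 1 to 69, and melatonin against siCLOCK 1031 to 2159 and 619 to 1699.

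With the replicate number as a block, 10, 0 and 10 of the licensing genes were called in the 3 comparisons, and siCLOCK against control gave 4 genes higher in place of 9. Deviations of same-numbered libraries correlated between -0.09 and 0.06, so the numbers are not taken as a pairing, and 1 of the 9 libraries correlated best with its own number. Where counts moved, the cause was not tested.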
